A study of Sus scrofa with 8 samples.

Results

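The genes described here are 44 genes of the cell cycle and of proliferation, taken as a list of gene names, with no measured value in the rule. Of these, 40 are among the 14718 genes measured, and CCNE1, RRM2, AURKA and MKI67 are not analysed here. They were followed in left ventricular tissue of 8 pigs, 4 gene-edited (mutant) and 4 wild type (WT). The genotype label names a KCNH2 mutation in mutant replicates 1 to 3 and a KCNH3 mutation in mutant replicate 4, while the design text of the series names KCNH2 alone. The KCNH2 protein forms the pore of a potassium channel that repolarises the heart muscle cell, and its loss of function causes long QT syndrome. The labels state neither the exact edit nor the strain, sex, age, litter or number of founder clones of the pigs, and p-values therefore measure the spread between these samples only. RNA was polyadenylated RNA of whole tissue, so fewer cells of a type and less RNA per cell cannot be told apart. KCNH2 itself had 798, 1762, 1751 and 1839 normalized counts in mutant replicates 1 to 4, against 989, 559, 1909 and 148 in WT replicates 1 to 4. Its log2 difference was 1.21 ± 0.68 (SE, adjusted p = 0.438 in limma). The groups overlapped, and counts per gene carry no information on the edit.

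The libraries did not carry equal amounts of usable RNA. Recovered depth was 15.9 to 22.4 M reads in mutant and 16.8 to 21.6 M reads in WT libraries (M, 1e+06). Genes encoded by mitochondrial DNA took 15.9% to 27.5% of the reads in mutant and 31.7% to 87.9% in WT libraries. Nuclear genes were left with 12.7 to 16.2 M reads in mutant libraries, 12.9 and 11.5 M in WT replicates 1 and 2, 7.53 M in WT replicate 4, and no more than 2.53 M in WT replicate 3. Of these nuclear reads, the gene ssc-mir-10390 took 13.0% in WT replicate 3 and 3.53% in WT replicate 4. In every other library it took 0.886% or less. Its reads are counted in the nuclear depths and in all sums per M non-mitochondrial reads. WT replicates 3 and 4 therefore stand apart, and WT replicate 1 stands apart in the genes described here. The main results are given with and without these libraries. The 8 markers of cardiomyocytes were read in every library, at 67701 to 73369 reads per M non-mitochondrial reads in mutant and 46257 to 54839 in WT libraries, so heart muscle was present in each. The sum mixes genes of both directions. MYH7 averaged 256660 normalized counts in mutant and 127942 in WT libraries, and RYR2 averaged 20864 and 5789. TNNT2 (70487 against 87472) and TNNI3 (69304 against 108910) were lower in mutant libraries. ACTC1 had 1752 normalized counts in WT replicate 4, against 32209 to 234540 in every other library. Relative to each gene's mean, the median of the 8 overlapped, at 0.888 to 1.215 in mutant and 0.699 to 1.043 in WT libraries.

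As background, a dividing cell makes D-type cyclins, which activate CDK4 and so release E2F transcription factors from the RB proteins. E2F factors then switch on the genes of DNA replication, and FOXM1 together with MYBL2 and the MuvB complex switches on the genes of mitosis later in the same cycle. Most cardiomyocytes leave the cycle at some time after birth in mammals, and the labels do not give the age of these pigs. Dividing cells of an adult ventricle are mostly endothelial cells, fibroblasts and immune cells. D-type cyclins and several replication genes are also transcribed in cells that do not divide, whereas cyclin B, CDK1 and the genes of the spindle are largely limited to cycling cells.

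All 40 genes had at least 1 read in each of the 4 mutant libraries and in WT replicates 1 and 2. In WT replicate 3, 28 of 40 were read and 12 had 0 reads, and in WT replicate 4, 31 were read and 9 had 0. Those at 0 were 30% of the 40 in WT replicate 3 and 22.5% in WT replicate 4, against 27.1% and 12.5% of all genes measured. WT replicate 3 lacked CCNE2, FOXM1, TYMS, CCNA2, CCNB2, CDK1, PLK1, MAD2L1, CDC20, CENPE, KIF11 and KIF20A. WT replicate 4 lacked E2F1, FOXM1, CDC6, CDK1, BUB1B, CENPF, CENPE, KIF20A and TOP2A. In all, 17 of 40 genes had 0 reads in at least 1 WT library and none in a mutant library. A count of 0 allows up to 3 reads, which is 14.5 normalized counts in WT replicate 3 and 3.64 in WT replicate 4. A normalized count is a gene's read count divided by a size factor of its library. These limits cover counting error only.

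Detection was also set at equal depth. If every library were thinned to the 2.53 M nuclear reads of the shallowest, the expected number of genes with a read would be 39.6, 39.6, 39.9 and 39.9 in mutant replicates 1 to 4, against 40, 39.3, 28 and 29.7 in WT replicates 1 to 4. With a minimum of 10 reads at full depth, 40, 39, 40 and 40 genes were counted in mutant replicates 1 to 4, against 40, 39, 22 and 25 in WT replicates 1 to 4. At equal depth the expected numbers with 10 reads were 25.4, 33.7, 34.7 and 29.1 in mutant replicates 1 to 4. They were 39.9, 28.1, 22 and 19.5 in WT replicates 1 to 4. Genes of a similar level serve as the background. Of the 3015 nuclear genes whose mutant mean lay between the lower and upper quartile of the cell cycle genes (51.2 to 204 normalized counts), 1.16% had 0 reads in WT replicate 4, and 14.3% in WT replicate 3. Among the 20 cell cycle genes in that band the shares were 25% in WT replicate 4 and 25% in WT replicate 3. These shares are a description of single libraries and carry no test.

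**Figure D1:**
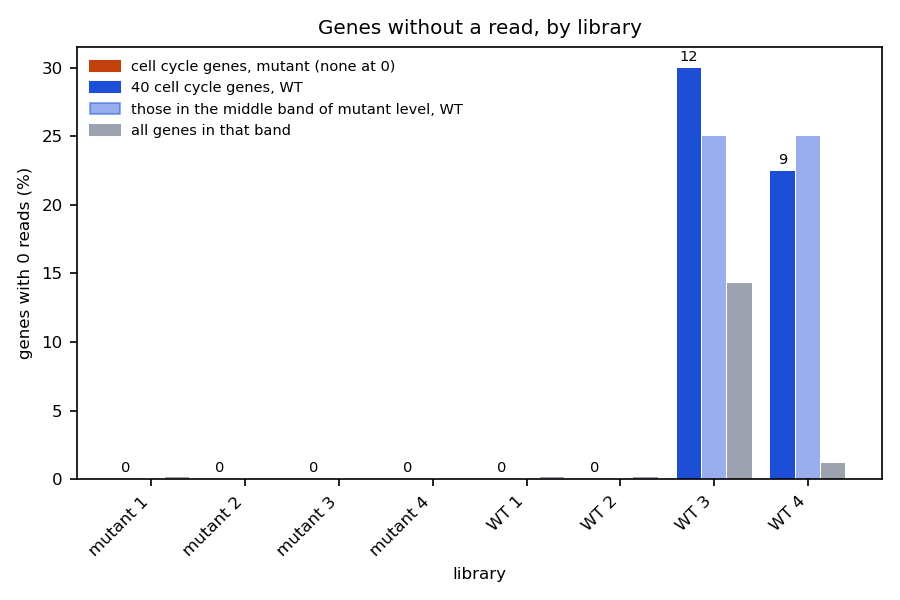
Share of genes with 0 reads (y axis, percent) in each library (x axis), for the 40 cell cycle genes (dark bars, with the number of genes above), for those in the middle band of mutant level (pale bars) and for all nuclear genes in that band (grey bars). No cell cycle gene was at 0 in a mutant library or in WT replicates 1 and 2, while 12 were at 0 in WT replicate 3 and 9 in WT replicate 4.

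Tested between the groups, none of the 40 genes passed in limma or edgeR, and 1, MCM7, did in DESeq2. All 40 passed the filter (10 or more normalized counts in 4 or more libraries), 21 of them with fewer than 4 WT libraries above that level. In limma, 0 of 40 passed at an adjusted p under 0.05, against 0.0% of all 11660 genes tested. At an unadjusted p under 0.05 there were 2 of 40, both lower in mutant libraries, against 13.9% of all genes. edgeR on the recovered reads called 0 of 40 (0.0% of all genes), with 2 at an unadjusted p under 0.05 (14.8% of all genes). DESeq2 called 1 of 40, MCM7, lower in mutant libraries (3.95% of all 14718 genes, with 3 of 40 and 16.1% of all genes at an unadjusted p under 0.05), and so does the authors' deposited table (3.94% of all genes). Among the 11660 genes that passed the filter DESeq2 called 162 higher and 384 lower. FOXM1 had no p-value in DESeq2 or in the authors' deposited table, so it could not be called there. MCM7 was also the sole gene of the 40 whose groups did not overlap, against 11.4% of all genes.

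The sign of the differences depended on the scale and on single WT libraries. WT values lay on both sides of the mutant values. On the log2(normalized count + 1) scale of limma, 22 genes were higher and 18 lower in mutant libraries, with a median log2 difference of 0.17 against 0.12 over all genes tested. DESeq2, whose fold change follows the ratio of group means, gave 4 higher and 36 lower, with a median of -0.79 against -0.06 over all genes. Without WT replicate 1, limma gave 31 higher and 9 lower (median 0.93, against 0.15 over all genes). At an unadjusted p under 0.05 there were 7 higher and 2 lower (18.8% of all genes, in either direction). Of those higher, FOXM1, CDC20, CENPE, KIF11 and KIF20A reached the filter level in 2 WT libraries and all 4 mutant libraries. They passed the filter through the mutant group, so their p-values are no support for a difference. Without WT replicates 3 and 4, limma gave 3 higher and 37 lower (median -0.71, against 0.01). In that fit 5 genes, all lower, had an unadjusted p under 0.05 (16.0% of all genes, in either direction). After adjustment 0 of 40 passed limma in either case, against 0.00858% of all genes with WT replicate 1 left out and 0.103% with WT replicates 3 and 4 left out. DESeq2 called 2 of 40 without WT replicate 1, CCND2 and MCM7 (7.0% of all genes), and 1 without WT replicate 3, CDC25B (4.03%). It called 0 without WT replicate 4 (3.48%) and 3 with WT replicates 3 and 4 both left out, CCNB2, CDC25B and KIF23 (4.78%). The direction in DESeq2 turned as well: with WT replicate 1 left out 27 genes were higher and 13 lower, with a median of 0.24, and 4 higher and 3 lower had an unadjusted p under 0.05 (19.6% of all genes). With WT replicates 3 and 4 both left out 1 was higher and 39 lower, with a median of -1.31. In that DESeq2 fit 20 of 40 genes, all lower, had an unadjusted p under 0.05, against 16.0% of all genes in either direction and 8.55% lower, while limma had 5. Its WT libraries were replicates 1 and 2 alone, and WT replicate 1 lay above every mutant library for 37 of 40 genes. The number is therefore not read as a difference between the groups. For 31 of 40 genes, 77.5%, all 4 mutant values lay inside the range of the WT values, against 39.2% of all genes tested. No mutant value can lie below a WT value of 0, which 17 of the 40 genes had. Over all 11660 genes tested, 1447 had 0 reads in at least 1 library. The 39.2% is not matched for level, so this contrast is not read as a trait of these genes.

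**Figure D2:**
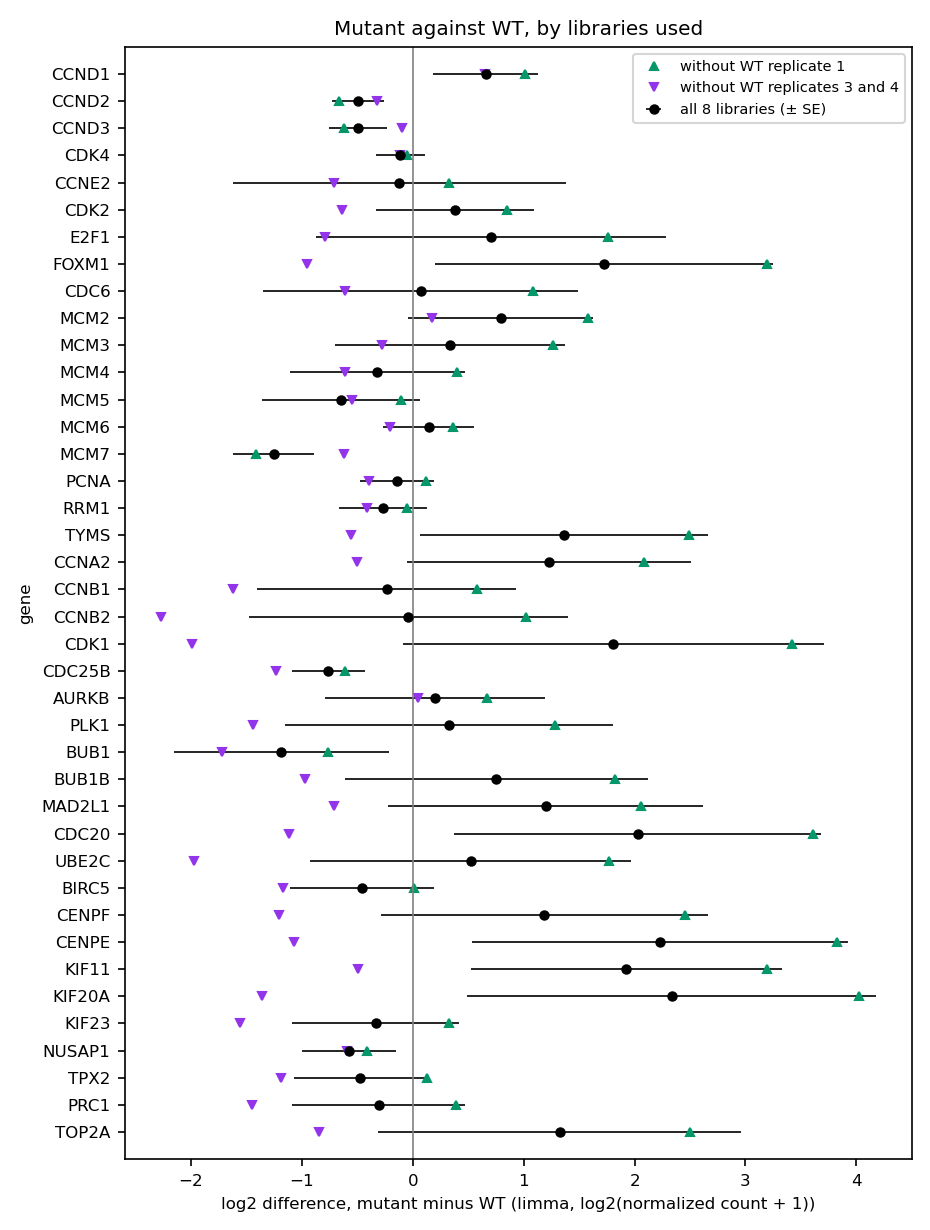
Log2 difference, mutant minus WT, of each cell cycle gene (limma on log2(normalized count + 1), x axis), with all 8 libraries (circles, bars are the SE), with WT replicate 1 left out (upward triangles) or WT replicates 3 and 4 left out (downward triangles). With WT replicate 1 left out 31 genes lie right of 0, and with WT replicates 3 and 4 left out 37 lie left of it.

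WT replicate 1 held the highest level of most of these genes. It was the highest of the 8 libraries for 29 of 40 genes (72.5%, against 11.9% of all genes tested), and it lay above every mutant library for 37 of 40 (92.5%, against 28.5% of all genes). Relative to each gene's mean over the 8 libraries, the median level of the 40 genes was 0.529, 0.833, 0.995 and 0.74 in mutant replicates 1 to 4, against 3.29, 0.743, 0.616 and 0.344 in WT replicates 1 to 4. By this median WT replicate 1 was the highest library and WT replicate 4 the lowest. The 4 mutant libraries lay between them together with WT replicates 2 and 3. The sum of the 40 genes, in reads per M non-mitochondrial reads, gave another order. It was highest in WT replicate 1, at 1681, and next in WT replicate 4, at 910.5. Mutant libraries stood at 663 to 889, with mutant replicate 1 the lowest of all. WT replicates 3 and 4 were both below every mutant library in 10 of 40 genes (25%, against 20.8% of all genes).

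**Figure D3:**
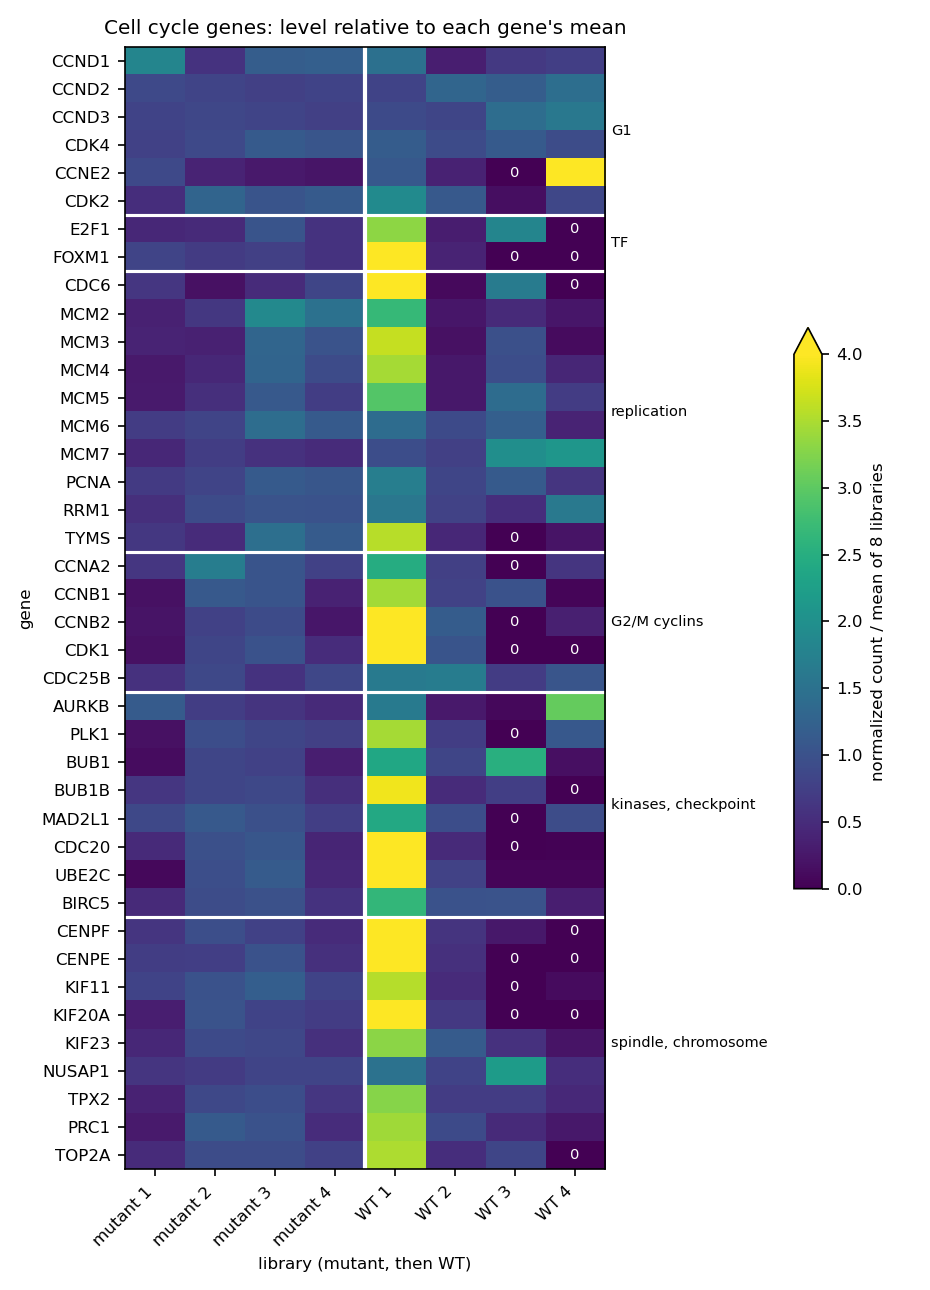
Level of each cell cycle gene (rows, grouped by role) in each library (columns, mutant left and WT right), as the normalized count divided by the gene's mean over the 8 libraries, with a printed 0 where the library had no read. The column of WT replicate 1 is the brightest for 29 of 40 genes, and the zeros stand in WT replicates 3 and 4 alone.

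The G1 cyclins and their kinases were mostly read well in every library. CCND1, which encodes cyclin D1, had 2123, 680.4, 1375 and 1413 normalized counts in mutant replicates 1 to 4, against 1716, 394, 770.3 and 871 in WT replicates 1 to 4. Mutant replicate 1 was the highest library and WT replicate 2 the lowest, and the groups overlapped. Its log2 difference was 0.66 ± 0.47 (SE, adjusted p = 0.525 in limma). CCND2, for cyclin D2, had 530.2, 495, 458 and 483 normalized counts in mutant replicates 1 to 4, against 482, 780.0, 702 and 861 in WT replicates 1 to 4. The mutant values were tight, and WT replicate 1 alone among WT libraries lay within them, with a difference of -0.49 ± 0.23 (SE, adjusted p = 0.384 in limma). DESeq2 called CCND2 lower without WT replicate 1. CCND3, for cyclin D3, had 469, 494, 479 and 444 normalized counts in mutant replicates 1 to 4, against 518, 488, 828 and 931 in WT replicates 1 to 4. WT replicates 3 and 4 were well above all other libraries, and the difference was -0.50 ± 0.26 (SE, adjusted p = 0.415 in limma), or -0.09 without those libraries. CCND3 overlaps TAF8 in the pig annotation, and TAF8 had 212 ± 53.8 normalized counts in mutant and 336 ± 153 in WT libraries (SD, n = 4), also highest in WT replicates 3 and 4. CDK4, the kinase that D-type cyclins activate, had 427, 482, 623 and 582 normalized counts in mutant replicates 1 to 4, against 639, 502, 625 and 509.6 in WT replicates 1 to 4, and its groups overlapped.

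The later G1 genes were less even. CDK2, the kinase partner of cyclins E and A, had 103, 257, 207 and 227 normalized counts in mutant replicates 1 to 4, against 385, 223, 29.1 and 169.9 in WT replicates 1 to 4. WT replicate 3 was the lowest library, with 6 reads, and WT replicate 1 the highest. CCNE2, for cyclin E2, had 48.9, 22, 15 and 12.6 normalized counts in mutant replicates 1 to 4, against 60.4, 20.7, 0 and 261 in WT replicates 1 to 4. WT replicate 4 was far above every other library, and WT replicate 3 had no read. CCNE2 overlaps INTS8, whose level in WT replicate 4, 286 normalized counts, was no higher than in mutant libraries (336 to 406). Of the transcription factors, E2F1, which activates replication genes, had 45.8, 50.1, 108 and 60.9 normalized counts in mutant replicates 1 to 4, against 346, 33.7, 189 and 0 in WT replicates 1 to 4. FOXM1, which activates mitotic genes, had 23.2, 19.7, 21.5 and 16.6 normalized counts in mutant replicates 1 to 4, against 135, 11.2, 0 and 0 in WT replicates 1 to 4. For both factors every mutant library lay inside the WT range, between the high value of WT replicate 1 and the empty WT replicate 4. The log2 difference of FOXM1 was 1.72 ± 1.53 (SE, adjusted p = 0.6 in limma) and was 3.19 without WT replicate 1 but -0.95 without WT replicates 3 and 4.

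MCM7 was the gene with the smallest p of the 40. It encodes a subunit of the replicative helicase, the ring of MCM2 to MCM7 that unwinds DNA at the fork. Its level was 312, 502, 395 and 339 normalized counts in mutant replicates 1 to 4, against 652, 525, 1366 and 1455 in WT replicates 1 to 4. Every mutant value lay below every WT value, by a wide margin for WT replicates 3 and 4 and by a narrow one for WT replicate 2. Means were 387 ± 84 in mutant and 999.6 ± 479 in WT libraries (SD, n = 4). The log2 difference was -1.25 ± 0.36 (SE, adjusted p = 0.232 in limma). In the authors' deposited table the log2 fold change is -1.37 (adjusted p = 0.0251). DESeq2 kept the call in 3 of 8 fits that left out 1 library and lost it without WT replicate 3 or 4 or mutant replicate 1, 3 or 4 (adjusted p up to 0.172). Without WT replicates 3 and 4 together the limma difference was -0.62 and the DESeq2 adjusted p was 0.266. MCM7 overlaps AP4M1 in the pig annotation, and counting by strand is not stated. AP4M1, a subunit of an adaptor complex for vesicle transport, had 140.5, 211, 148 and 124 normalized counts in mutant replicates 1 to 4, against 181, 357, 421 and 280.3 in WT replicates 1 to 4. AP4M1 was highest in WT replicate 3 and MCM7 in WT replicate 4, and the difference of AP4M1 was -0.95 ± 0.33 (SE, adjusted p = 0.283 in limma).

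In the other 5 helicase subunit genes the groups overlapped. MCM2 had 55.6, 99.5, 290.3 and 229.8 normalized counts in mutant replicates 1 to 4, against 413, 36.3, 72.7 and 36.4 in WT replicates 1 to 4. Mutant replicates 3 and 4 stood above mutant replicates 1 and 2, and WT replicate 1 stood above all other libraries. MCM3 had 42.1, 38, 137 and 107 normalized counts in mutant replicates 1 to 4, against 383, 18.1, 102 and 12.1 in WT replicates 1 to 4. MCM4 had 66.6, 105, 306 and 217 normalized counts in mutant replicates 1 to 4, against 822, 61.3, 223 and 101 in WT replicates 1 to 4. MCM5 followed the same order among mutant libraries, with 58, 109, 225 and 148 normalized counts in mutant replicates 1 to 4, against 588, 52.7, 286 and 143 in WT replicates 1 to 4. In all 4 of these genes mutant replicates 3 and 4 were above mutant replicates 1 and 2 (8 of the 10 replication genes, 80%, against 23.2% of all genes tested). MCM6 was more even, at 266, 308, 539 and 425 normalized counts in mutant replicates 1 to 4, against 535, 339, 455 and 153 in WT replicates 1 to 4. On the limma scale MCM2, MCM3 and MCM6 lay above 0 and MCM4 and MCM5 below 0, and none passed.

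Of the remaining replication genes, PCNA, the sliding clamp of DNA polymerases, had 327, 396, 541 and 512 normalized counts in mutant replicates 1 to 4, against 821, 397, 543 and 299.7 in WT replicates 1 to 4. RRM1, the large subunit of ribonucleotide reductase, had 391, 663, 733 and 721 normalized counts in mutant replicates 1 to 4, against 1140.3, 573, 378 and 1161 in WT replicates 1 to 4. Both were read well in every library, and all mutant values lay inside the WT range. RRM1 was as high in WT replicate 4 as in WT replicate 1. TYMS, which makes thymidylate, had 18.9, 14.4, 42.2 and 33.1 normalized counts in mutant replicates 1 to 4, against 103, 13, 0 and 6.07 in WT replicates 1 to 4. CDC6, which loads the helicase on origins, had 11, 3.04, 8.58 and 14.6 normalized counts in mutant replicates 1 to 4, against 71.5, 1.73, 29.1 and 0 in WT replicates 1 to 4, the lowest mean of the 10 genes in either group. WT replicate 1 was the highest library for both. The 10 replication genes had 5 members higher and 5 lower, a median log2 difference of -0.03, and 0 passing limma.

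**Figure D4:**
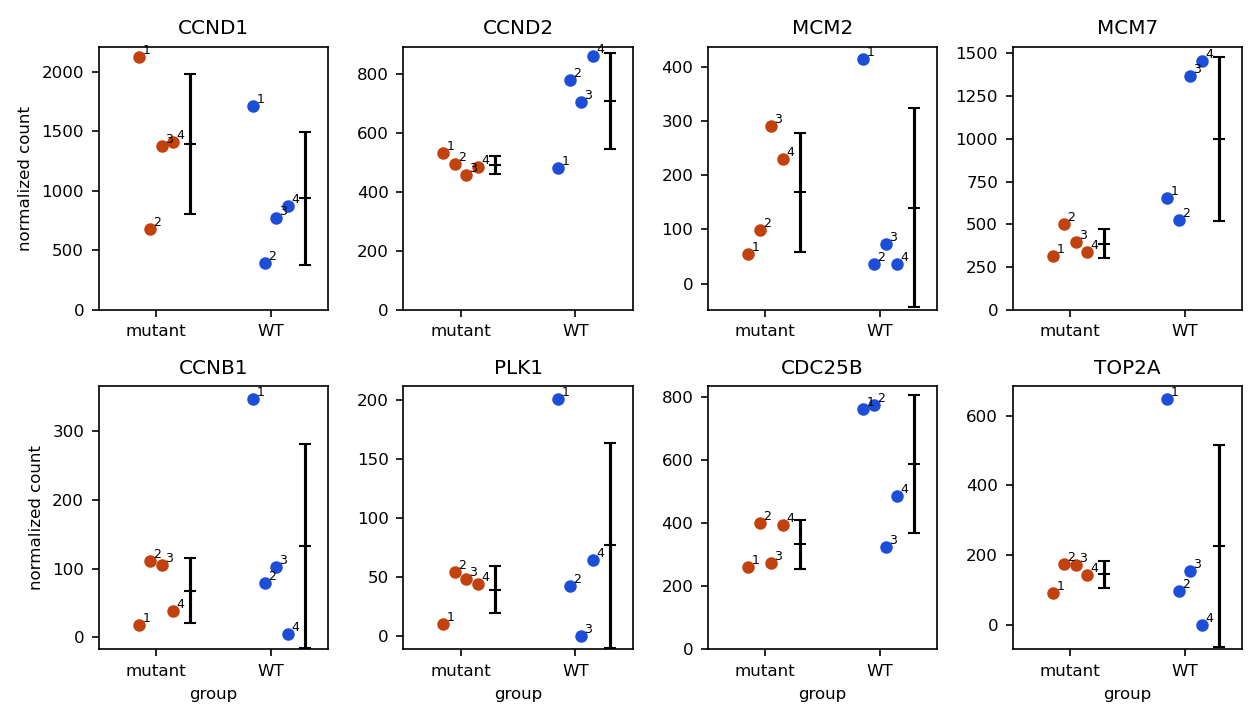
Normalized counts of 8 cell cycle genes in mutant (left) and WT (right) libraries, 1 point a library with its replicate number, beside the mean and SD (n = 4). MCM7 is the gene whose groups do not overlap, and in MCM2, CCNB1, PLK1 and TOP2A WT replicate 1 lies above all other libraries.

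Cyclins of S phase, G2 and mitosis ranged widely among WT libraries. CCNB1, for cyclin B1, the partner of CDK1 at mitotic entry, had 17.7, 112, 105 and 37.7 normalized counts in mutant replicates 1 to 4, against 346, 78.6, 102 and 4.85 in WT replicates 1 to 4. CDK1 had 16.5, 74.4, 89.4 and 45.7 normalized counts in mutant replicates 1 to 4, against 396, 92.4, 0 and 0 in WT replicates 1 to 4. WT replicate 1 was well above every other library in both genes, and WT replicates 3 and 4 held no CDK1 read while WT replicate 3 held 21 reads of CCNB1. CCNB2, for cyclin B2, had 7.33, 27.3, 32.2 and 8.61 normalized counts in mutant replicates 1 to 4, against 153, 40.6, 0 and 12.1 in WT replicates 1 to 4. CCNA2, for cyclin A2, had 25, 67.6, 41.5 and 30.5 normalized counts in mutant replicates 1 to 4, against 98.5, 30.2, 0 and 24.3 in WT replicates 1 to 4. Among mutant libraries replicates 2 and 3 were above replicates 1 and 4 in each of these 4 genes. CDC25B, a phosphatase that removes the inhibitory phosphate from CDK1, was different, with 260.2, 401, 272 and 395 normalized counts in mutant replicates 1 to 4, against 760.5, 775, 325 and 487 in WT replicates 1 to 4. It was high in WT replicates 1 and 2 and lower in all other libraries, and the groups overlapped through WT replicate 3. Its log2 difference was -0.76 ± 0.33 (SE, adjusted p = 0.343 in limma), or -1.24 without WT replicates 3 and 4, where DESeq2 called it lower together with CCNB2 and KIF23.

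The mitotic kinases and checkpoint genes had low counts. PLK1, polo-like kinase 1, had 10.4, 54.7, 48.6 and 43.7 normalized counts in mutant replicates 1 to 4, against 201, 42.3, 0 and 64.3 in WT replicates 1 to 4. AURKB, the kinase of the chromosomal passenger complex, had 120.3, 75.9, 63.6 and 51 normalized counts in mutant replicates 1 to 4, against 172, 29.4, 9.69 and 322 in WT replicates 1 to 4. AURKB was highest in WT replicate 4, unlike its complex partner BIRC5 (survivin), which had 34.2, 65.3, 70.1 and 41.7 normalized counts in mutant replicates 1 to 4, against 188, 70.8, 72.7 and 24.3 in WT replicates 1 to 4. BUB1, a kinase of the spindle checkpoint, had 7.94, 47.8, 44.3 and 19.2 normalized counts in mutant replicates 1 to 4, against 137, 48.4, 145 and 9.71 in WT replicates 1 to 4, with a log2 difference of -1.19 ± 0.97 (SE, adjusted p = 0.57 in limma). The value of WT replicate 3 was the highest and rested on 30 reads. Its relative BUB1B was 24.5 to 39.3 in mutant and 0 to 179 in WT libraries, and the checkpoint protein gene MAD2L1 was 59.6 to 89.6 in mutant and 0 to 193 in WT libraries in normalized counts.

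Of the partners of the anaphase-promoting complex, the ubiquitin ligase that ends mitosis, the activator CDC20 had 37.3, 75.9, 82.9 and 32.4 normalized counts in mutant replicates 1 to 4, against 353, 37.1, 0 and 1.21 in WT replicates 1 to 4. Its ubiquitin-conjugating enzyme UBE2C had 9.16, 94.2, 112 and 44.4 normalized counts in mutant replicates 1 to 4, against 439, 76.9, 4.84 and 4.85 in WT replicates 1 to 4. Both were highest in WT replicate 1 and next to absent in WT replicates 3 and 4, with 0 and 1 reads of CDC20 and 1 and 4 reads of UBE2C. In WT replicate 3 even 0 reads allow up to 14.5 normalized counts. Its UBE2C value is therefore not set apart from the 9.16 of mutant replicate 1. The mutant libraries spread as well: UBE2C differed 12.3-fold between mutant replicates 3 and 1. The log2 difference of CDC20 was 2.03 ± 1.66 (SE, adjusted p = 0.57 in limma), yet DESeq2 gave -0.79. Of the 8 genes of kinases, checkpoint and the anaphase-promoting complex, 6 were higher and 2 lower in limma, and 0 were higher and 8 lower in DESeq2, none of them called.

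Of the 9 genes of the spindle and of chromosome structure, 8 were highest in WT replicate 1. TOP2A, the topoisomerase that untangles sister chromatids, had 89.8, 173, 172 and 142 normalized counts in mutant replicates 1 to 4, against 649, 97.6, 155 and 0 in WT replicates 1 to 4. WT replicate 4 had no read of it in 7.53 M nuclear reads, while WT replicate 3 had 32 in 2.53 M. The kinesin gene KIF20A, needed for cytokinesis, had 32.4, 98.7, 77.9 and 68.2 normalized counts in mutant replicates 1 to 4, against 429.9, 63.9, 0 and 0 in WT replicates 1 to 4. The spindle kinesin KIF11 had 49.5, 61.5, 72.9 and 49 normalized counts in mutant replicates 1 to 4, against 217, 30.2, 0 and 7.28 in WT replicates 1 to 4. In both genes WT replicate 1 was the highest library, all 4 mutant libraries stood between the WT values, and WT replicate 3 was at 0. CENPE, a kinesin of the kinetochore, had 44, 45.6, 61.5 and 33.8 normalized counts in mutant replicates 1 to 4, against 271, 33.7, 0 and 0 in WT replicates 1 to 4. The log2 differences were 2.34 ± 1.84 (SE, adjusted p = 0.557 in limma) for KIF20A, 1.92 ± 1.40 (SE, adjusted p = 0.531 in limma) for KIF11 and 2.23 ± 1.69 (SE, adjusted p = 0.546 in limma) for CENPE. All 3 were below 0 in DESeq2 (-0.84, -0.15 and -0.73).

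The rest of the spindle genes were CENPF, KIF23, NUSAP1, TPX2 and PRC1. NUSAP1, which bundles spindle microtubules, was read in every library, with 183, 209, 245 and 244 normalized counts in mutant replicates 1 to 4, against 451, 240.1, 654 and 158 in WT replicates 1 to 4. It was highest in WT replicate 3, on 135 reads, and its difference was -0.57 ± 0.42 (SE, adjusted p = 0.537 in limma). NUSAP1 overlaps NDUFAF1 and OIP5 in the pig annotation, as CCNA2 does EXOSC9, PLK1 does ERN2 and KIF20A does CDC23. Reads of such partners cannot be told apart unless counting used strand. In mutant and WT libraries NDUFAF1 averaged 674 and 341 normalized counts, OIP5 295 and 416, EXOSC9 441 and 696, and CDC23 209 and 134. Every mutant value lay above every WT value in NDUFAF1 and below every WT value in EXOSC9. The part of these partners in the levels of NUSAP1, CCNA2 and KIF20A was not tested. TPX2, which activates Aurora kinase on the spindle, ranged from 73.3 to 183 in mutant and 88.6 to 631 in WT libraries. PRC1, which bundles the central spindle, ranged from 40.9 to 159 in mutant and 37.6 to 486 in WT libraries, and the cytokinesis kinesin KIF23 from 51.9 to 106 in mutant and 25.5 to 392 in WT libraries. CENPF, a protein of the kinetochore, ranged from 37.7 to 73.7 in mutant and 0 to 329.8 in WT libraries. All of these levels are normalized counts, and WT replicate 1 was the highest library for each of TPX2, PRC1, KIF23 and CENPF.

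Summed over genes, the roles differed in how far libraries stood apart. Sums of the 6 G1 genes, in reads per M non-mitochondrial reads, were 373, 252, 323 and 327 in mutant replicates 1 to 4, against 369.5, 243, 241 and 395 in WT replicates 1 to 4. Sums of the 6 MCM genes were 80.8, 120.2, 193 and 152 in mutant replicates 1 to 4, against 330.0, 104, 204 and 208 in WT replicates 1 to 4. Sums of the 22 genes of G2 and mitosis were 127, 240.3, 224 and 173 in mutant replicates 1 to 4, against 727, 235, 146 and 147 in WT replicates 1 to 4. The G1 sums spread 1.48-fold in mutant and 1.64-fold in WT libraries, and the G2 and mitosis sums 1.9-fold in mutant and 4.98-fold in WT libraries. All 22 genes of G2 and mitosis were above every mutant library in WT replicate 1. Within the mutant group, replicates 2 and 3 were both above replicates 1 and 4 in 19 of these 22 genes (86.4%, against 15.5% of all genes tested), whereas 8 of the 10 replication genes had replicates 3 and 4 above replicates 1 and 2. Replication and mitotic genes thus ordered the mutant libraries differently. Such orders between single libraries have no replicate check.

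**Figure D5:**
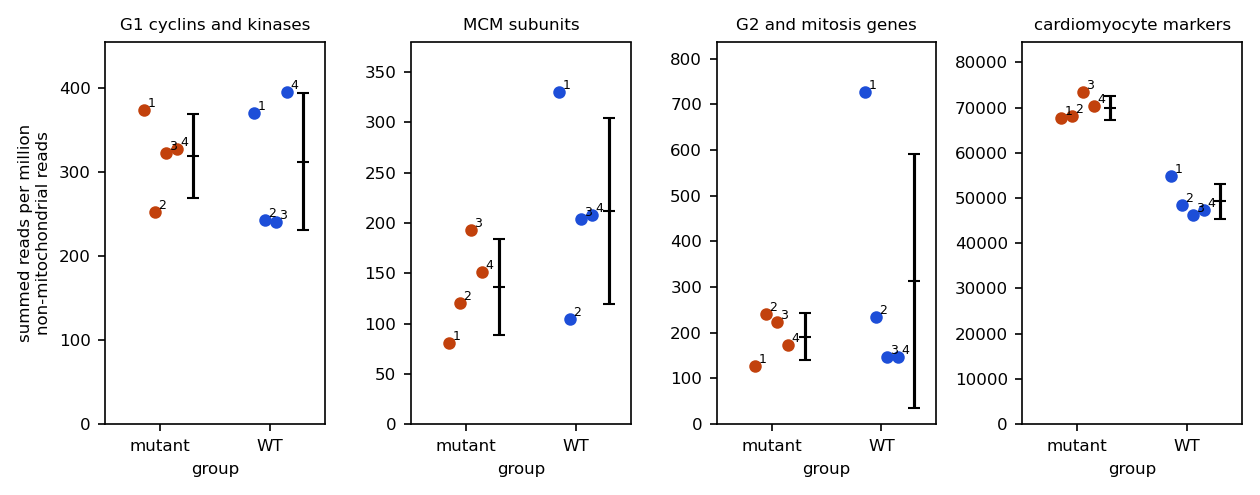
Summed reads per M non-mitochondrial reads of the G1 genes, the MCM genes, the genes of G2 and mitosis, and 8 cardiomyocyte markers, in mutant (left) and WT (right) libraries, 1 point a library with its replicate number, beside the mean and SD (n = 4). WT replicate 1 is at 727 for G2 and mitosis, against 127 to 240.3 in mutant libraries.

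Markers of other cells of the ventricle also differed between libraries, and their part in the levels above was not tested. In reads per M non-mitochondrial reads, 8 endothelial markers summed to 1680.2 to 2603 in mutant and 690.1 to 4344 in WT libraries. The 8 fibroblast markers summed to 2707 to 7459 in mutant and 758 to 9567 in WT libraries, the 8 smooth muscle and pericyte markers to 1362 to 2185 in mutant and 888 to 3602 in WT libraries and the 8 macrophage markers to 152 to 449 in mutant and 77.6 to 544 in WT libraries. WT replicate 1, where the mitotic genes were highest, had 1989.9 for endothelial, 4868 for fibroblast and 77.6 for macrophage markers, the last being the lowest of the 8 libraries. WT replicate 4, which lacked 9 of the 40 genes, had the highest endothelial and macrophage sums, 4344 and 544, and the lowest fibroblast sum, 758. The 7 measured lymphocyte markers summed to 1.64 to 3.94 in mutant and 1.85 to 8.9 in WT libraries, and 6 of 7 were at 0 in WT replicate 3. Of the markers of muscle, endothelium, fibroblasts and smooth muscle none was at 0 in any library, and 2 of 8 macrophage markers were at 0 in WT replicate 3. The 5 measured neutrophil markers summed to 1.42 to 43.3 in mutant and 9.58 to 247 in WT libraries. The 6 measured erythroid markers summed to 259.8 to 307 in mutant and 5.85 to 3169 in WT libraries, with 1717, 3169, 2334 and 5.85 in WT replicates 1 to 4.

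Among 177 other genes of the cycle, listed in 8 groups, 169 were measured and 162 tested. In limma 92 were higher and 70 lower in mutant libraries, with a median log2 difference of 0.11, and 0 passed. At an unadjusted p under 0.05 there were 5 higher and 14 lower, against 7.06% and 6.8% of all genes tested. The authors' deposited table calls 3 higher, TEAD1, ERBB4 and TBX20, and 6 lower, CDKN2D, E2F7, CDC45, RFC4, MYC and PLK3, against 1.14% and 2.8% of all genes. The groups did not overlap in 13, of which 5 were higher and 8 lower in mutant libraries, against 6.17% and 5.22% of all genes tested.

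CDK inhibitors hold the cycle back. Of the 6 tested, 2 were higher and 4 lower, with a median log2 difference of -0.57 and 0 passing limma. CDKN1A, for the inhibitor p21, a target of p53, had 271, 544, 748 and 505 normalized counts in mutant replicates 1 to 4, against 853, 1405, 1114 and 952 in WT replicates 1 to 4. Every mutant value lay below every WT value, with a difference of -1.13 ± 0.32 (SE, adjusted p = 0.228 in limma). CDKN2D, for p19, an inhibitor of CDK4 and CDK6, had 97.1, 117, 81.5 and 48.3 normalized counts in mutant replicates 1 to 4, against 237, 237, 136 and 178 in WT replicates 1 to 4, again without overlap. Its difference was -1.22 ± 0.38 (SE, adjusted p = 0.254 in limma). The authors' deposited table gives CDKN2D an adjusted p of 0.0366 and CDKN1A one of 0.0589. CDKN2B, for p15, had 10.5 ± 12.9 normalized counts in mutant and 26.4 ± 26.1 in WT libraries (SD, n = 4), with -1.74 ± 1.16 (SE, adjusted p = 0.501 in limma).

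In the group of RB proteins, E2F factors and MuvB subunits 9 were higher and 7 lower (median 0.10). E2F7, a repressor of E2F target genes, had 15.3, 27.3, 23.6 and 11.9 normalized counts in mutant replicates 1 to 4, against 71.5, 77.7, 145 and 36.4 in WT replicates 1 to 4. No mutant value reached the lowest WT value, and the log2 difference was -1.93 ± 0.63 (SE, adjusted p = 0.261 in limma). The authors' deposited table gives -2.04 (adjusted p = 0.00821). MYBL2, the MuvB partner of G2, had 21.4 to 88.7 in mutant and 39.7 to 483 in WT libraries in normalized counts, highest in WT replicate 1. RBL1, for the pocket protein p107, had a log2 difference of 0.51 ± 0.31 (SE, adjusted p = 0.467 in limma).

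Further cyclins and kinases counted 9 higher and 4 lower (median 0.25). Their members with the smallest p were CCNF, for cyclin F, CDK7, the CDK-activating kinase, and the phosphatase CDC25A, with log2 differences of -1.38, -0.48 and 0.51, and none passed. Origin licensing and fork genes counted 19 higher and 19 lower (median 0.02). GMNN, for geminin, which blocks relicensing of origins, had 92.2, 118, 181 and 149 normalized counts in mutant replicates 1 to 4, against 254, 197, 286 and 223 in WT replicates 1 to 4. RFC4, of the clamp loader, had 106, 85.8, 136 and 122 normalized counts in mutant replicates 1 to 4, against 227, 183, 504 and 184 in WT replicates 1 to 4. Neither gene's groups overlapped, and the differences were -0.85 ± 0.30 (SE, adjusted p = 0.289 in limma) for GMNN and -1.16 ± 0.38 (SE, adjusted p = 0.266 in limma) for RFC4. CDC45, a helicase cofactor, was 31.9 to 68.4 in mutant and 49.2 to 369 in WT libraries, highest in WT replicate 4, and its groups overlapped through WT replicate 2. Its difference was -1.74 ± 0.62 (SE, adjusted p = 0.29 in limma).

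Further mitotic genes counted 25 higher and 13 lower in limma (median 0.37) but 4 higher and 36 lower in DESeq2, and 34 of 40 were highest in WT replicate 1 (85%). In WT replicate 3, 20 of 40 had 0 reads, in WT replicate 4, 8, and in every other library none. Over all genes measured 27.1% had 0 reads in WT replicate 3 and 12.5% in WT replicate 4. CENPU, of the inner kinetochore, had 104, 29.6, 82.9 and 88.1 normalized counts in mutant replicates 1 to 4, against 155, 149, 169.6 and 311 in WT replicates 1 to 4, without overlap. Its difference was -1.42 ± 0.47 (SE, adjusted p = 0.27 in limma). ECT2, which directs the cleavage furrow, differed by -1.26 ± 0.44 (SE, adjusted p = 0.285 in limma). SGO2, which protects cohesin at centromeres, had 269, 175, 202 and 307 normalized counts in mutant replicates 1 to 4, against 188, 124, 0 and 4.85 in WT replicates 1 to 4, with a difference of 3.60 ± 1.49 (SE, adjusted p = 0.327 in limma). WT replicates 3 and 4 were the libraries at or near 0.

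Condensin and cohesin genes counted 6 higher and 7 lower (median -0.12), and subunits of the anaphase-promoting complex 9 higher and 7 lower (median 0.13). Both complexes also work in cells that do not divide. Log2 differences were 0.47 for SMC1A, -0.39 for SMC4 and 0.45 for STAG2 of condensin and cohesin. They were -0.92 for ANAPC2, -0.80 for ANAPC4 and 0.70 for CDC23 of the anaphase-promoting complex. None passed.

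Upstream regulators, some of which hold or release cardiomyocytes from the cycle, counted 13 higher and 9 lower (median 0.13). The authors' deposited table calls 5 of the 23 measured, against 3.94% of all genes. The lists were chosen with earlier results of these data known, so this share is not read as a trait of the group. ERBB4, the neuregulin receptor of cardiomyocytes, had 168, 165, 189 and 265 normalized counts in mutant replicates 1 to 4, against 20.7, 95.9, 53.3 and 10.9 in WT replicates 1 to 4. TEAD1, the DNA-binding partner of the Hippo effector YAP1, had 885, 563, 641 and 912 normalized counts in mutant replicates 1 to 4, against 211, 264, 518 and 116 in WT replicates 1 to 4. TBX20, a cardiac T-box factor, had 845, 591, 704 and 955 normalized counts in mutant replicates 1 to 4, against 254, 292, 315 and 29.1 in WT replicates 1 to 4. In all 3 every mutant value lay above every WT value, with log2 differences of 2.51 ± 0.65 (SE, adjusted p = 0.218 in limma), 1.60 ± 0.42 (SE, adjusted p = 0.22 in limma) and 2.22 ± 0.68 (SE, adjusted p = 0.249 in limma). YAP1 itself was 1050.1 to 1436 in mutant and 572 to 1722 in WT libraries in normalized counts.

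MYC, a transcription factor that promotes entry into the cycle and is induced within minutes of stress, had 178, 525, 297 and 261 normalized counts in mutant replicates 1 to 4, against 759, 3138, 2325 and 1908 in WT replicates 1 to 4. PLK3, a stress-induced relative of PLK1, had 82.5, 57.7, 70.8 and 70.2 normalized counts in mutant replicates 1 to 4, against 165, 312, 189 and 224 in WT replicates 1 to 4. Every mutant value of both lay below every WT value, with differences of -2.62 ± 0.47 (SE, adjusted p = 0.142 in limma) and -1.62 ± 0.33 (SE, adjusted p = 0.172 in limma). A sum of 15 immediate early genes that include MYC, whose part in these values was not tested, stood at 716 to 1351 in mutant and 1818 to 3589.7 in WT libraries in reads per M non-mitochondrial reads. In DESeq2 the calls of MYC and PLK3 held in 8 of 8 fits that left out 1 library, that of E2F7 in 7, those of ERBB4 and CDC45 in 4, those of MCM7 and TBX20 in 3, those of CDKN2D and RFC4 in 2 and that of TEAD1 in 1. For E2F7 the call was lost without mutant replicate 4, where its DESeq2 log2 difference was -1.87, against -2.04 with all libraries. In that fit DESeq2 called 128 genes in all, against 582 with all libraries. It also lost ERBB4, CDC45, MCM7, TBX20, CDKN2D, RFC4 and TEAD1, while MYC and PLK3 stayed called. The calls of ERBB4 and TBX20 were lost without any single mutant library, and that of TBX20 also without WT replicate 1. CDC45 was lost as well without mutant replicate 2 or 3 or WT replicate 4. Of all 8 libraries, TEAD1 kept its call without WT replicate 3 alone. RFC4 kept it without WT replicate 2 or 4, and CDKN2D without mutant replicate 2 or WT replicate 3.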

How the data were processed

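RNA was sequenced from left ventricular tissue of 8 pigs. Per the labels' protocols, messenger RNA was pulled down by its poly-A tail and sequenced after an NEBNext Ultra preparation, and counting by strand is not stated. The deposited table holds, per the file headers, 8 columns of signal (normalized counts, that is reads divided by a size factor per library), with the authors' mean, log2 fold change of mutant against WT and its error, a Wald score, and a raw and an adjusted p-value. Per the submitters' processing notes the authors used DESeq2, and the notes name the human build GRCh38, so no coordinates are printed. Neither aligner nor counter nor annotation is named in the sources used here. Gene overlaps were read by name from the RefSeq pig table (Sscrofa11.1).

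All values (100% within 1e-06 reads) were whole multiples of 1 read's worth in their column, so reads were recovered. Of 14720 rows, 2 named for an annotation source (0.392% to 0.853% of reads) were left out, and 14504 of the other 14718 matched a pig symbol. Genes with 10 or more normalized counts in 4 or more libraries were tested on log2(normalized count + 1), with limma 3.58.1 (trended, robust prior, Benjamini-Hochberg over all genes tested, threshold 0.05) in R 4.3.3. On this scale differences of low genes depend on the pseudocount. The median over the cell cycle genes was 0.26 with a pseudocount of 0.5 and -0.0034 with 5. edgeR 4.0.16 and DESeq2 1.42.0 on the recovered reads, other pseudocounts, filters, scalings and priors, and leaving out libraries were alternatives, and DESeq2 with libraries left out was added after the data were seen. Detection at equal depth is a hypergeometric expectation (scipy 1.17.1). The genes, lists and tests were chosen with earlier results of these data known. Values in every library are given for the 12 genes with the smallest limma p, the 5 with the most reads and any called gene, and of each other list the 3 genes with the smallest p and any called gene are named. Other genes were added for their roles. The labels tie no samples into pairs.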

Additional observations from a re-analysis of the deposited data

Results flagged for a closer look

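In each group of 4 libraries, a value was looked at again where its gap to the nearest other value, as a share of the group's whole range, exceeded Dixon's critical value. Of 80 groups (40 genes in mutant and in WT libraries) 10 were marked. Chance marks about 1 in 20 where values are normally distributed, whereas untransformed counts with zeros were used here. No share over all genes was counted, so the number of marks is not read as an excess. All 10 were the high value of WT replicate 1, and none was in the mutant group. Among regulators and replication genes these were FOXM1 at 135, MCM2 at 413 and TYMS at 103 normalized counts. Among mitotic genes they were CDC20 at 353, UBE2C at 439, CENPF at 329.8, CENPE at 271, KIF11 at 217, KIF20A at 429.9 and TPX2 at 631 normalized counts. The 40 genes share their libraries, so these marks are not independent of each other.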

How the results depend on the processing

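Of the 40 cell cycle genes, 0 were called by limma under every alternative, including each single left-out library (range 0 to 0), and by edgeR, while DESeq2 called 1. With libraries left out DESeq2 called 0 to 2, namely 1 without mutant replicate 2, WT replicate 2 or WT replicate 3 2 without WT replicate 1, and 3 with WT replicates 3 and 4 both left out. Over all genes limma called 0, 92 with array quality weights, 0 to 3 with 1 library left out (1 without WT replicate 1, 3 without WT replicate 4) and 12 with WT replicates 3 and 4 both left out. DESeq2 called 582 genes, 333, 370, 173 and 128 without mutant replicates 1 to 4 in turn, 1027, 705, 591 and 510 without WT replicates 1 to 4 in turn, and 698 without WT replicates 3 and 4 together. The median log2 difference over the cell cycle genes, 0.17, was 0.26 with a pseudocount of 0.5, -0.0034 with 5, -0.31 over the 19 genes that pass a minimum of 100, 0.21 after TMM rescaling, 0.25 scaled to non-mitochondrial reads (where the median of all genes was 0.20) and -0.09 with array quality weights. In edgeR it was -0.80, in DESeq2 -0.79 and in limma with WT 3 and 4 dropped -0.71. With 1 library left out it was -0.32 to 0.93 in limma. In DESeq2 it was then -1.08 (without WT replicate 4) to 0.24 (without WT replicate 1). Of the genes named with a difference, 5 changed sign, without WT replicates 3 and 4, in edgeR and in DESeq2: FOXM1 (-0.95, -0.91 and -0.88), CDC20 (-1.12, -0.80 and -0.79), CENPE (-1.07, -0.76 and -0.73), KIF11 (-0.50, -0.17 and -0.15) and KIF20A (-1.36, -0.86 and -0.84). Each has 0 reads in at least 1 WT library, and the cause of the change was not tested. The number of genes with a read, 40 in each mutant library, was 39.6, 39.6, 39.9 and 39.9 in mutant replicates 1 to 4 at equal depth, and 39 in mutant replicate 2 at a minimum of 10 reads at full depth. With a minimum of 10 reads at equal depth the expected number was 25.4 to 34.7 in mutant and 19.5 to 39.9 in WT libraries. No paired analysis was possible because the labels tie no mutant pig to a WT pig. Depth limits WT replicate 3 most, where 1 read is worth 4.84 normalized counts.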
